A study of Mus musculus with 4 samples.

Results

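The matrix metalloproteinases and their inhibitors described here are 10 named genes of the 19059 measured: the proteases Mmp8, Mmp9, Mmp12, Mmp13, Mmp14, Mmp19 and Mmp25 and the inhibitors Timp1, Timp2 and Timp3. They were chosen by name, with earlier results of these data known. They were followed across the macrophages, monocytes, neutrophils, T cells and stromal cells of MC38 tumors. MC38 is a mouse colon carcinoma line, here grown under the skin of B-hCTLA-4 mice, C57BL/6 animals that carry human CTLA-4. The 4 groups received an isotype control (hIgG1, 10 mg/kg), the αCTLA-4 antibody ipilimumab (hIgG1, 10 mg/kg), the Fc-silenced mouse antibody αFcγRII AT130-2 (mIgG1-N297A, 20 mg/kg), or both antibodies. Treatment began when tumors reached about 100 mm3, and tumors were taken on day 8 after 3 treatments. The tumors of 11 mice per group were pooled into 1 sample, live CD45+ cells were sorted after a gradient, fixed in formaldehyde and read with 10x Flex, which counts unique molecular identifiers (UMIs) on probe pairs hybridised to RNA. Each group is therefore 1 library with no replicate, so no test was possible. Numbers of animals, doses, tumor volume and day are those of GEO's text, and the paper's own text gives others for this experiment. The 95% intervals given are exact Poisson intervals for levels and exact conditional intervals for ratios, and they cover counting error only.

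Matrix metalloproteinases are zinc enzymes that cut collagens, elastin, gelatins and other proteins of the extracellular matrix, and most are made as inactive proenzymes. Tissue inhibitors of metalloproteinases, encoded by the Timp genes, block the active site, and the balance of both sets how far tissue is remodelled. In tumors, macrophages, neutrophils and stromal cells are known sources of these proteins.

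GEO's title and treatment field name opposite antibodies for both single-antibody libraries, so each is called by its title here: the library titled αCTLA-4 and the library titled αFcγRII. The conflict does not touch the isotype and combination libraries. The libraries held 6097 to 8173 cell barcodes and a median of 14836 to 19115 UMIs per cell, and 5779 to 7741 cells were kept in each. They shared 0 full barcodes, and 4461 of 23366 droplet barcodes (19.1%) occurred in at least 2 libraries, which were loaded as a pool. Classes were rebuilt by clustering without the Mmp and Timp genes, and are called macrophage-like, monocyte-like and so on in full, shortened to macrophages and monocytes below. Macrophages were 44.2%, 48.3%, 58.5% and 45.3% of the kept cells in the isotype, titled αCTLA-4, titled αFcγRII and combination libraries. Clusters holding markers of both lymphocytes and macrophages, 13.6%, 8.75%, 8.12% and 12.95% of cells, were kept apart, as were cluster 4 (468, 312, 354 and 525 cells) and cluster 6 (498, 329, 393 and 323 cells), which a rule set after the clusters were seen left out of the macrophages. The stromal and tumor class was low in Ptprc, the gene of the sorted CD45, at 12.5 to 25.0 CPM, which is UMIs per 1000000 UMIs of the class, against 495 to 599 CPM in macrophages.

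3 of the genes lie on chromosome 9, given in mm10 coordinates. Mmp13, collagenase 3, spans 7272514 to 7283331, Mmp12, macrophage metalloelastase, spans 7344381 to 7369499, and Mmp8, neutrophil collagenase, spans 7558456 to 7568485, all on the plus strand. Macrophages held 77.3% of the Mmp12 UMIs and 74.9% of the Mmp13 UMIs of all kept cells, against 45.6% for Mmp8, so the promoter windows of the 3 are shown beside each other, 250 bases before to 50 bases after the start from RefSeq (GRCm38.p6). Capitals mark the letters TGANTCA, the AP-1 motif, which reads the same on both strands. The windows are Mmp13 at chr9:7272264-7272563, Mmp12 at chr9:7344147-7344446 and at chr9:7347124-7347423, and Mmp8 at chr9:7558179-7558478.
Mmp13: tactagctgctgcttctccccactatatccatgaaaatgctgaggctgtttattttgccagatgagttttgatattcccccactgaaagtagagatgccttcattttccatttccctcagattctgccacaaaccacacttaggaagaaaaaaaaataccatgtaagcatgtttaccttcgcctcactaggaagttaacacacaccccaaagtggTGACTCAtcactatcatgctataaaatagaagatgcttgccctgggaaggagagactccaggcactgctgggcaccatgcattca
Mmp12, first start: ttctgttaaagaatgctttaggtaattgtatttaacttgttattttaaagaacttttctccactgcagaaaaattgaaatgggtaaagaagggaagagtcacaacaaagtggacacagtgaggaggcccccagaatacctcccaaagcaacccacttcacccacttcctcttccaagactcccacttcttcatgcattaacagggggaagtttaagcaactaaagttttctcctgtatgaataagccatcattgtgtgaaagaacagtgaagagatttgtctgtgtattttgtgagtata
Mmp12, second start: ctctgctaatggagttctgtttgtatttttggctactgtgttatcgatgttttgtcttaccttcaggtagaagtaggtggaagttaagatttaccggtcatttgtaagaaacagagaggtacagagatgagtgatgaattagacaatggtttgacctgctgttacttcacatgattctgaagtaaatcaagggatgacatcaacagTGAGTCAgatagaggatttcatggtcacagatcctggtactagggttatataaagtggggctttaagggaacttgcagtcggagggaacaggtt
Mmp8: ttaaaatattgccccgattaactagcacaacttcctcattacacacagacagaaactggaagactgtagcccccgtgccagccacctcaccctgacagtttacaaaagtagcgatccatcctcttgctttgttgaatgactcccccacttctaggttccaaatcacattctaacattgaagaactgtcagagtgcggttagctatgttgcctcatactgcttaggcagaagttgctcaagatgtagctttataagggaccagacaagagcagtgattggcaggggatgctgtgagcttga
The AP-1 letters stood at -35 from the start of Mmp13 and at -44 from the second start of Mmp12, and they were not in the window of the first Mmp12 start or in that of Mmp8. Of all 32851 RefSeq promoter windows of this length, 2565 (7.81%) held them. The PEA3 letters AGGAAG, on either strand, were in 11613 windows (35.4%), and all 4 windows above except that of the second Mmp12 start held them. In all, 8 of the 10 genes matched the table, with 9 windows. Of the 5 windows not shown, those of Mmp14, Mmp25, Timp1 and Timp3 held the PEA3 letters and none held the AP-1 letters. Mmp9 and Mmp19 were not among the matches.

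Each gene had its own pattern over the classes. Values below are CPM of the summed UMIs of a class, and are given in the order isotype, library titled αCTLA-4, library titled αFcγRII and combination. Since Flex probes differ between genes, levels are compared within a gene.

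Mmp12 RNA was a macrophage signal. Its level in macrophages was 708, 774, 588 and 1544 CPM, and in monocytes 62.8, 70.5, 37.5 and 330 CPM. The combination library was highest in both classes. In the stromal and tumor class Mmp12 stood at 4.92 to 18.5 CPM.

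Mmp13 followed Mmp12 at 86.2, 127, 56.2 and 175 CPM in macrophages. In monocytes it stood at 18.2 to 32.8 CPM and in neutrophils at 3.41 to 55.7 CPM. Mmp14, a membrane-anchored collagenase that also activates pro-MMP2, was nearly flat in macrophages at 557, 544, 571 and 571 CPM. Stromal and tumor cells held it too, at 507, 363, 491 and 378 CPM.

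Mmp9, gelatinase B, was a neutrophil and stromal signal. Neutrophils held 1075, 1409, 1197 and 1149 CPM, and the stromal and tumor class 541, 287, 454 and 265 CPM. Macrophages held 4.70, 20.2, 15.5 and 39.1 CPM, the lowest in the isotype library (95% interval 4.23 to 5.22) and the highest in the combination library (37.8 to 40.4). These intervals take UMIs as independent and do not cover the spread between cells, and few cells held most of the UMIs. Without the 29 cells with at least 20 Mmp9 UMIs, chosen after seeing the data, the levels were 3.04, 1.19, 2.46 and 8.05 CPM. The library titled αCTLA-4 was then the lowest. Macrophages held 6661 of the 23921 Mmp9 UMIs of all kept cells (27.8%), against 3909 (16.3%) in neutrophils and 9917 (41.5%) in the stromal and tumor class. The 29 cells held 35.4%, 94.1%, 84.1% and 79.6% of the macrophage Mmp9 UMIs in the libraries.

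Mmp8 was highest in neutrophils, where it stood at 231, 147, 239 and 131 CPM. Monocytes held 57.9, 56.1, 59.8 and 68.4 CPM, a near-flat line over the libraries. Macrophages held 7.91, 10.5, 4.12 and 31.5 CPM, with the combination library highest (95% interval 30.3 to 32.6, against 7.29 to 8.57 in the isotype library).

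Mmp19, a soluble protease known to cut basement membrane proteins, stood at 62.1, 81.4, 63.4 and 139 CPM in macrophages and at 101, 133, 130 and 179 CPM in monocytes. Mmp25, anchored to the membrane of leukocytes by a lipid, stood at 66.4, 139, 61.4 and 133 CPM in neutrophils and at 17.3, 25.5, 10.1 and 35.9 CPM in macrophages. Dendritic cells held more Mmp25, at 278, 281, 241 and 602 CPM.

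Among the inhibitors, Timp2, which binds MMP14 and pro-MMP2, was highest in stromal and tumor cells at 1019, 682, 816 and 687 CPM. Macrophages held 401, 458, 554 and 402 CPM of it, and monocytes 67.9, 36.4, 85.8 and 71.5 CPM. Timp1, an inhibitor of most secreted MMPs, stood at 73.5, 111, 110 and 127 CPM in stromal and tumor cells. In monocytes it was 22.7, 43.8, 61.0 and 74.1 CPM, and in macrophages 13.5, 11.7, 13.5 and 27.5 CPM. Timp3, which binds the matrix, had 68 UMIs over all kept cells, 30 of them in the stromal and tumor class, and never passed 3.39 CPM in any of the 5 named classes.

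**Figure D1:**
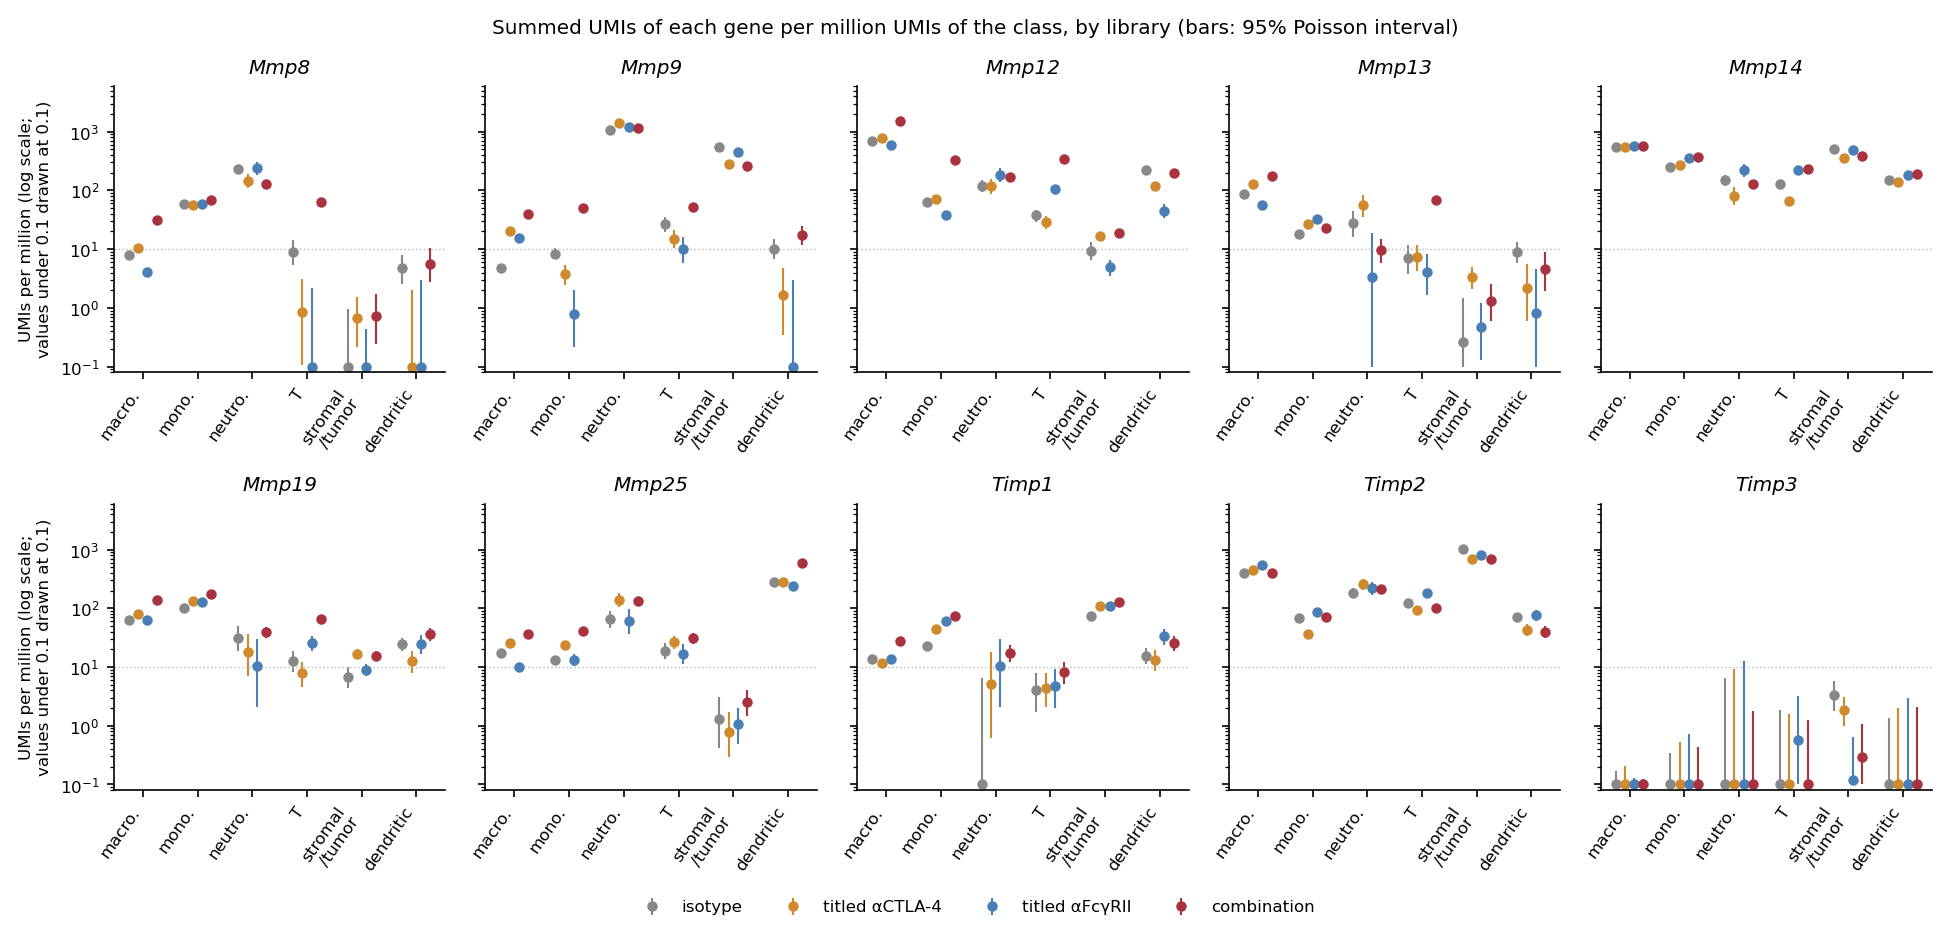
Level of each of the 10 genes by cell class, in CPM of summed UMIs on a log axis, with 1 point per library, bars for the 95% Poisson interval and a dotted line at 10 CPM; values under 0.1 CPM are drawn at 0.1. Mmp9 is highest in neutrophils, Mmp12 and Mmp13 in macrophages, and Timp2 and Timp1 in the stromal and tumor class, while Timp3 is near 0 in each class.

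The combination was next compared with the isotype control within macrophages. A gene counted as tested where its mean over the 4 libraries was at least 10 CPM, and as past the fold where the ratio was at least 1.5 in either direction. Of the 10 genes, 9 were tested in macrophages, Timp3 being the one left out, and 7 were higher in the combination library by at least 1.5-fold with 0 lower. Mmp8 passed the filter only through the combination library, its mean in the other 3 being 7.50 CPM, so it had to be higher there. With the filter on the other 3 libraries, chosen after seeing the data, 8 genes were tested and 6 were higher, against 6.22% of 8562 genes past the fold in either direction. Over all 8574 genes tested in macrophages, 553 (6.45%) passed that fold, 3.52% higher and 2.93% lower. Because the 10 genes were chosen with earlier results known, counts beside all genes are a description only, here and in the other classes. The median log2 ratio of all tested genes was -0.11, and that of the 9 was 1.05 (1.04 for the 8 without Mmp8).

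Mmp9 had a ratio of 8.31 (95% interval 7.45 to 9.29), and 4 of the 8574 genes had a higher one, but it was 2.59 at a clustering resolution of 1.2, where 11 of 29 cells richest in Mmp9 left the class, and 2.65 without those 29 cells, an alternative chosen after seeing the data. For Mmp8 the ratio was 3.98 (3.64 to 4.35), with 24 genes above it. Mmp19 stood 2.24-fold higher (2.17 to 2.32) and Mmp12 2.18-fold higher (2.16 to 2.20). These 4 span collagen, gelatin and elastin cutting enzymes. Mmp8, like Timp2, was also on a panel of macrophage genes that the study chose on these libraries, so neither is independent evidence of the direction of that panel.

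Mmp25 was 2.08-fold higher (1.95 to 2.21), Timp1 2.03-fold (1.89 to 2.19) and Mmp13 2.03-fold (1.97 to 2.09). The pair Mmp14 and Timp2, whose proteins work together at the cell surface, differed little, with ratios of 1.02 (1.01 to 1.04) and 1.00 (0.988 to 1.02). Relative to the median of all genes, the log2 ratios were 0.14 for Mmp14 and 0.12 for Timp2, against 1.13 to 3.17 for the 7 genes past the fold.

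The single-antibody libraries stood closer to the isotype library. Of the 9 tested genes, 1 was past the fold in the library titled αCTLA-4 against isotype, with a background of 1.21% of 8574 genes. This was Mmp9, at 4.29 (3.82 to 4.83), where 5 cells held 94.1% of the UMIs. The ratio turned below 1 without the 1% of cells with most Mmp9 UMIs (0.668), at resolution 1.2 (0.610) and with 20 principal components (0.656). Mmp25 at 1.48 and Mmp13 at 1.47 were just short of the fold in that library. In the library titled αFcγRII against isotype, 4 were past the fold, with a background of 1.64%. Mmp9 was higher at 3.29 (2.92 to 3.71), where 6 cells held 84.1% of the UMIs, and the ratio was 0.768 without the 1% of cells with most of them. Mmp8 at 0.520 (0.454 to 0.596), Mmp25 at 0.585 (0.535 to 0.639) and Mmp13 at 0.652 (0.627 to 0.677) were lower. Mmp8 was under 10 CPM in both of these libraries, at 4.12 CPM against 7.91 CPM in isotype. It entered this count only because the combination library raised its mean past the filter.

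Against the library titled αCTLA-4 the combination was past the fold for 5 genes, all higher, namely Mmp8, Mmp9, Mmp12, Mmp19 and Timp1, with a background of 4.33%. Against the library titled αFcγRII it was past the fold for 7 genes, all higher and the 7 named for the isotype comparison, with a background of 8.35%. Mmp8 is in both counts, but it passed the filter only through the combination library, its mean without that library being 7.5 CPM. It therefore had to be higher there in both comparisons. These comparisons share the combination library, and those above share the isotype library.

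**Figure D2:**
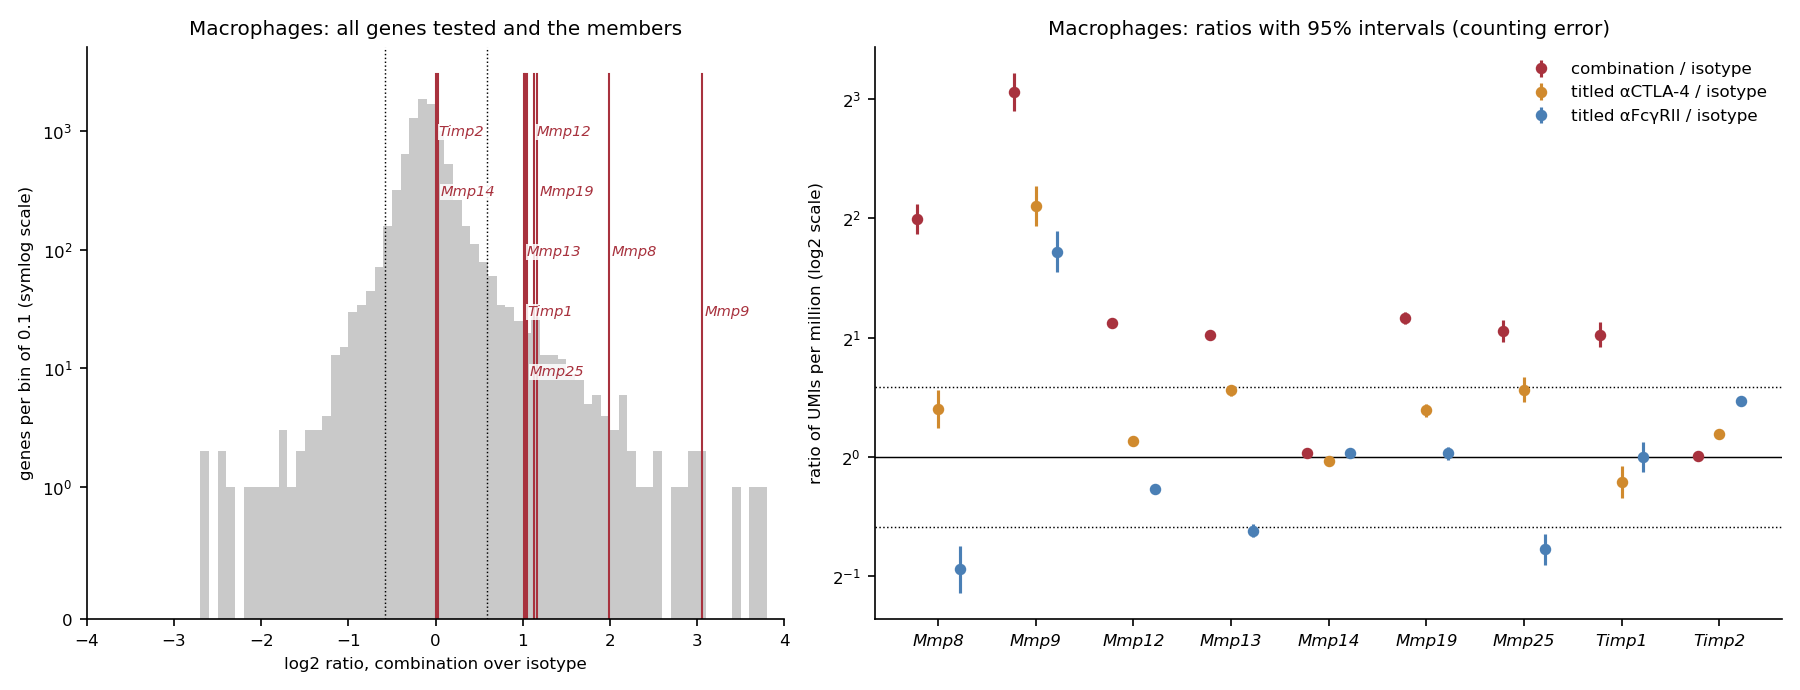
Left, the number of tested macrophage genes per bin of the log2 ratio of combination to isotype (symlog count axis), with red lines at the 9 genes; right, their ratios of each treated library to isotype on a log2 axis with 95% counting intervals, and dotted lines at 1.5-fold in both panels. For the combination 7 genes lie past 1.5-fold, while Mmp14 (1.02) and Timp2 (1.00) lie near 1.

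Some summed markers of other cells were also higher in macrophages of the combination library. The neutrophil markers (all 11 detected) were 430, 476, 465 and 962 CPM in macrophages. The 14 stromal and tumor markers were 79.4 to 167 CPM, highest in the combination library. NK and ILC1 markers were 143 and 186 CPM in the isotype and combination libraries, and dendritic cell markers 80.2 and 113 CPM. Mast cell and basophil markers were 5.26 and 11.7 CPM. The T cell markers were at 168.3, 75.5, 34.3 and 167.5 CPM over the libraries, near equal in isotype and combination. In the combination library B cell markers (52.1 CPM in isotype and 17.6 in combination) and monocyte markers (1186 and 923 CPM) were lower. The 14 macrophage markers summed to 41200, 43920, 43860 and 33790 CPM, lowest in the combination library. Whether RNA of other cells had a part in the Mmp9 and Mmp8 values was not tested.

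Clusters of macrophages, made without these genes, differed in what they held. Cluster 13, led by Nos2, an enzyme of nitric oxide synthesis, had Mmp12 at 5477, 4095, 5587 and 6099 CPM. Its share of macrophages was 3.51%, 5.99%, 3.58% and 11.5%, so the combination library held the most of it. Cluster 1, led by Ctsk and heat shock genes, held Mmp12 at 2127, 2660, 1922 and 5030 CPM and Mmp13 at 254, 307, 178 and 680 CPM. In cluster 1 the combination library was highest for both. Of the 29 cells richest in Mmp9, 14 lay in cluster 1. Those 29 cells held Ctsk at 7781 CPM, against 10.8 CPM in all other macrophages.

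Cluster 22, led by Retnla and Lyve1, genes known from tissue-resident macrophages, was the one with the most Mmp19, at 513, 495, 1142 and 1552 CPM. It had only 25 to 56 cells per library. Cluster 0, led by Folr2 and Gas6, held Timp2 at 606, 729, 806 and 669 CPM. Over all libraries it held Timp2 at 708.5 CPM, against 898.8 CPM in cluster 22, the macrophage cluster with the most.

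When each library was given the cluster shares of the isotype library, the ratios of combination to isotype were 2.06 for Mmp12, 3.58 for Mmp8, 10.6 for Mmp9, 2.25 for Mmp13, 2.12 for Mmp19, 1.92 for Mmp25 and 1.84 for Timp1. All 7 stayed past 1.5-fold within fixed shares. Over the 10 clusters, the combination library was higher than isotype in 10 for Mmp9 and Mmp12, in 9 for Mmp8, Mmp19, Mmp25 and Timp1, and in 8 for Mmp13, against 4 for Mmp14 and 7 for Timp2. The clusters come from the same libraries in which the 7 genes were found higher, so these counts are no separate support. The same count over all genes was not taken. Some clusters held few UMIs, such as cluster 21 with 17 of Mmp9 over all libraries.

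**Figure D3:**
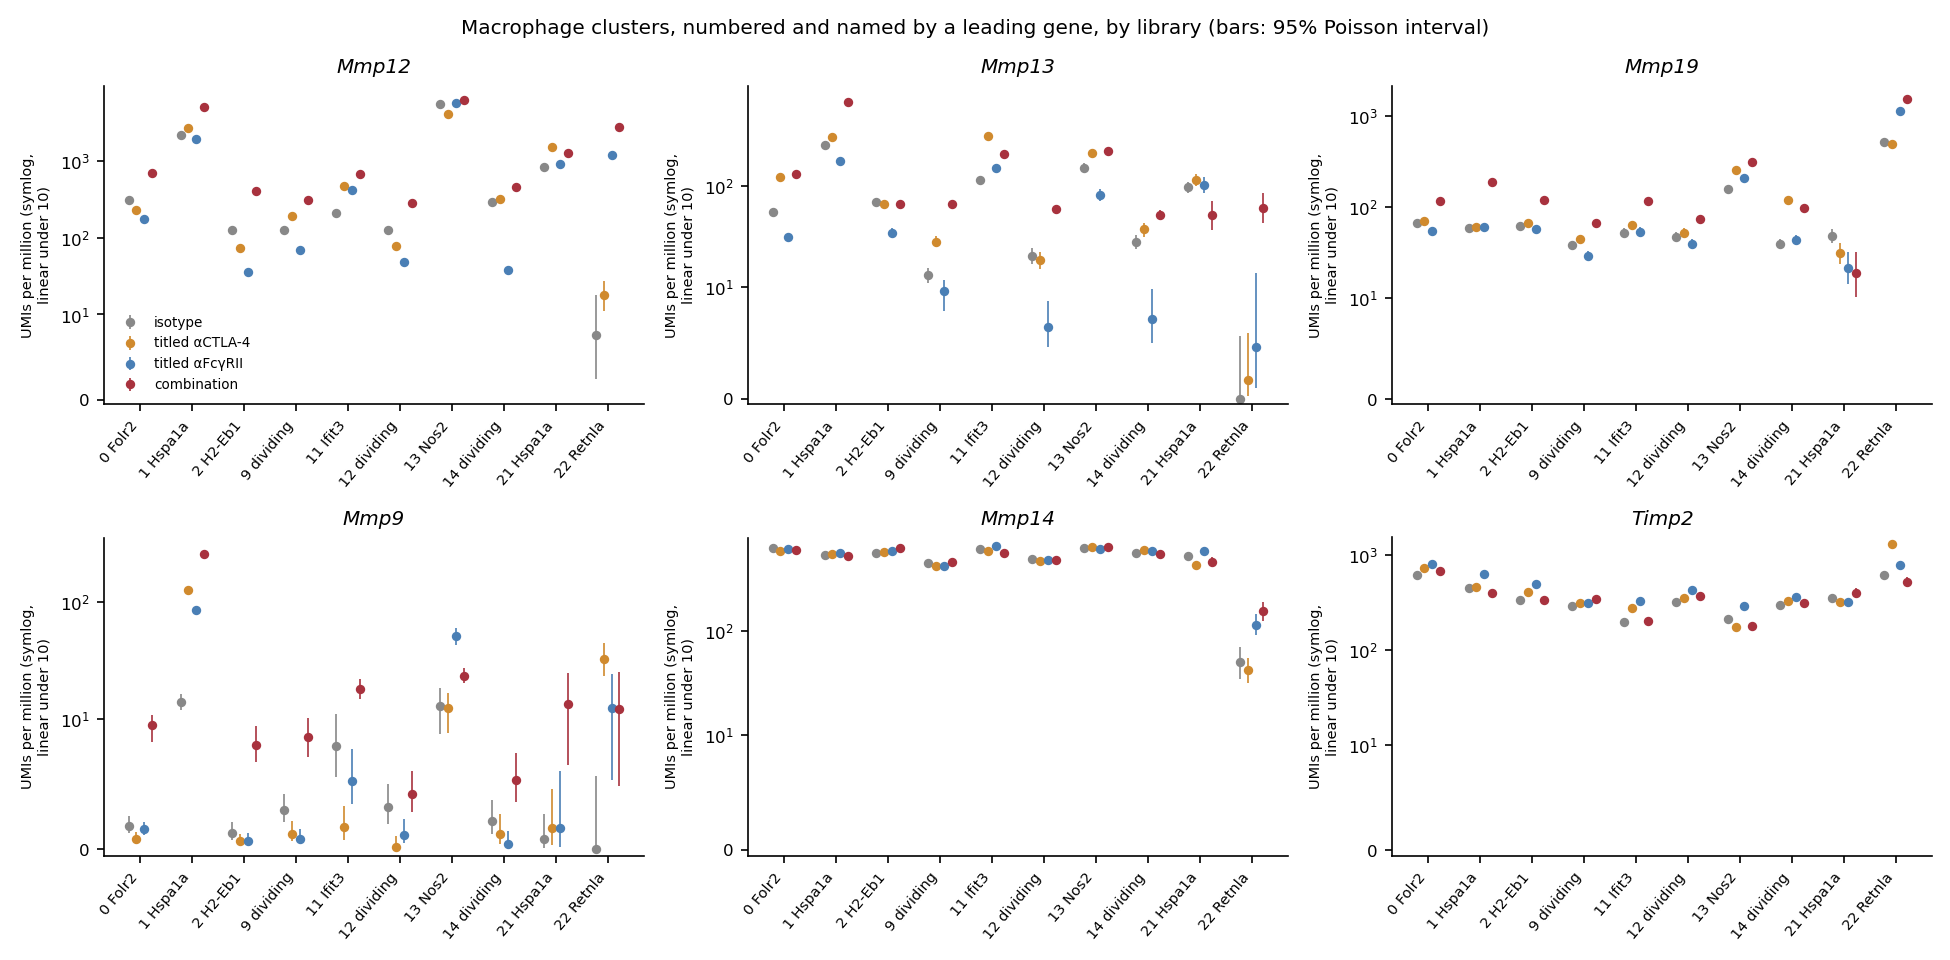
Level of Mmp12, Mmp13, Mmp19, Mmp9, Mmp14 and Timp2 in each macrophage cluster and library, in CPM on a symlog axis (linear under 10) with 95% Poisson intervals. Cluster 13 holds Mmp12 at 4095 to 6099 CPM, and cluster 22 holds Mmp19 at 495 to 1552 CPM.

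A few cells carried most macrophage Mmp9. The 1% of macrophages with most Mmp9 UMIs held 84.6%, 97.6%, 96.4% and 87.1% of them, against 4.52% to 5.53% for Mmp14. Mmp12 and Mmp13 lay between, with 29.2% to 42.5% and 33.1% to 43.0% of UMIs in the top 1% of cells. Without those cells the Mmp9 ratio of combination to isotype stood at 7.03, and without the 29 cells with at least 20 Mmp9 UMIs, of which 15 were in the combination library and 3 in the isotype library, at 2.65.

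**Figure D4:**
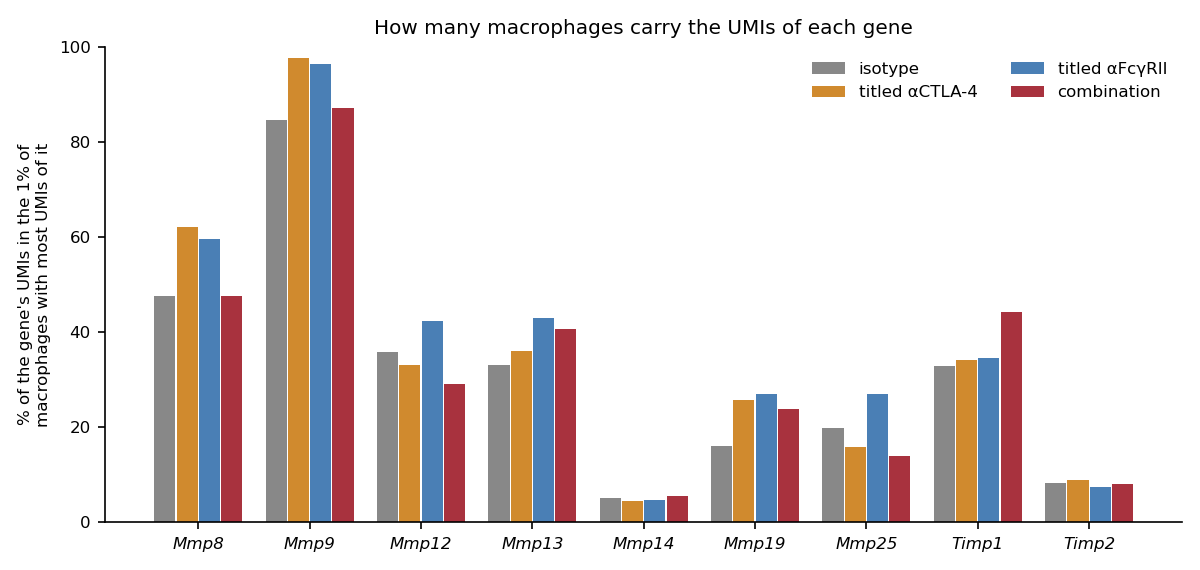
Percent of each gene's macrophage UMIs held by the 1% of cells with the most of them, per library. Mmp9 is at 84.6% to 97.6% and Mmp14 at 4.52% to 5.53%.

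Shares of cells with a UMI were compared after thinning each cell to 1873 UMIs. In macrophages 19.7%, 21.3%, 15.4% and 29.3% of cells had a Mmp12 UMI, against 2.06% to 6.23% in NK cells and ILC1, a class not known for it. For Mmp14 the shares were 59.0% to 61.8% in macrophages and 2.43% to 7.73% in NK cells and ILC1. Without thinning, the Mmp12 shares were 27.3% to 54.4% in macrophages and 4.25% to 19.9% in NK cells and ILC1. For Mmp14 they were 95.3% to 97.3% and 5.66% to 16.6%. Thinning left 2908 to 3409 macrophages and 217 to 418 NK cells and ILC1 per library. Median depths were 18480 to 24690 UMIs in macrophages and 4316 to 6083 in NK cells and ILC1.

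In monocytes 9 genes were tested and 5 were past the fold, all higher in the combination library, with a background of 8.5% of 8066 genes. The class held cluster 5, led by Plac8 and Chil3, at 485, 382, 271 and 413 cells. It also held cluster 8, led by Ace and Adgre4, at 548, 311, 172 and 218 cells. Over all libraries clusters 5 and 8 held Timp1 at 75.95 and 3.29 CPM, Mmp25 at 35.5 and 4.52, and Mmp12 at 197 and 33.85. Mmp14 stood at 442 and 82.2 CPM and Mmp19 at 179 and 64.0. Mmp8 (36.8 and 98.3) and Mmp9 (15.95 and 19.5) were lower in cluster 5. The part of this make-up in the ratios was not tested. Mmp9 was 5.89-fold higher (4.68 to 7.49), from 8.37, 3.71, 0.782 and 49.3 CPM. It passed the filter only through the combination library, its mean in the other 3 being 4.29 CPM, and with the filter on those 3 the count was 4 of 8, against 8.36% of 8054 genes. Mmp12 was 5.25-fold higher (4.82 to 5.72). Timp1 was 3.27-fold (2.81 to 3.81), Mmp25 3.14-fold (2.58 to 3.84) and Mmp19 1.76-fold higher (1.63 to 1.91). Mmp14, at 247, 269, 350 and 370 CPM, was just short of the fold, at 1.496 (1.42 to 1.58), and Mmp8 was at 1.18 (1.05 to 1.33). Without integration of the libraries the Mmp9 ratio in monocytes was 1.302, under the fold, and without the 1% of cells with most Mmp9 UMIs it was 24.6. That of Mmp12 was 12.3 without integration. At resolution 0.4 the ratio was 2.62 for Mmp12, 1.72 for Timp1, 6.05 for Mmp25 and 1.85 for Mmp14. Mmp9 in monocytes came from few cells as well, the top 1% holding 72.2% of its UMIs in the combination library. The neutrophil markers in monocytes were 867, 903, 811 and 1522 CPM, and the part of neutrophil RNA in the Mmp9 values was not tested.

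In neutrophils 8 genes were tested and 3 were past the fold, 1 higher and 2 lower, with a background of 37.4% of 7616 genes, so this share of the members is near that of all genes. Neutrophils numbered 115, 94, 49 and 465 cells. Mmp8 had a ratio of 0.568 (0.460 to 0.704), Mmp13 of 0.344 (0.170 to 0.711) from 16 and 20 UMIs in the isotype and combination libraries, and Mmp25 of 2.01 (1.43 to 2.90). Mmp9 was at 1.07 (0.978 to 1.17). Without the 1% of cells with most Mmp13 the ratio of Mmp13 was 0.0558, and without integration that of Mmp9 was 0.697. The macrophage markers in neutrophils ranged from 5755 to 20920 CPM.

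The neutrophils split into a pair of subclusters that differed in Mmp8. The smaller, of 101 cells led by Apod and Retnlg, held Mmp8 at 706, 506, 513 and 523 CPM and Mmp9 at 2758, 2724, 2371 and 2834 CPM. The larger, of 621 cells led by Cxcl3 and Cxcl10, held Mmp8 at 59.5, 80.9, 122 and 104 CPM. In the larger subcluster alone the Mmp8 ratio was 1.75, the opposite direction to that over all neutrophils. The smaller subcluster was 34 of 115 neutrophils in the isotype library and 34 of 465 in the combination library. In the larger subcluster Mmp9 was at 469, 1168, 696 and 1042 CPM, lowest in the isotype library and 2.22-fold higher in the combination, and Mmp25 at 40.4, 126, 48.7 and 132 CPM.

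**Figure D5:**
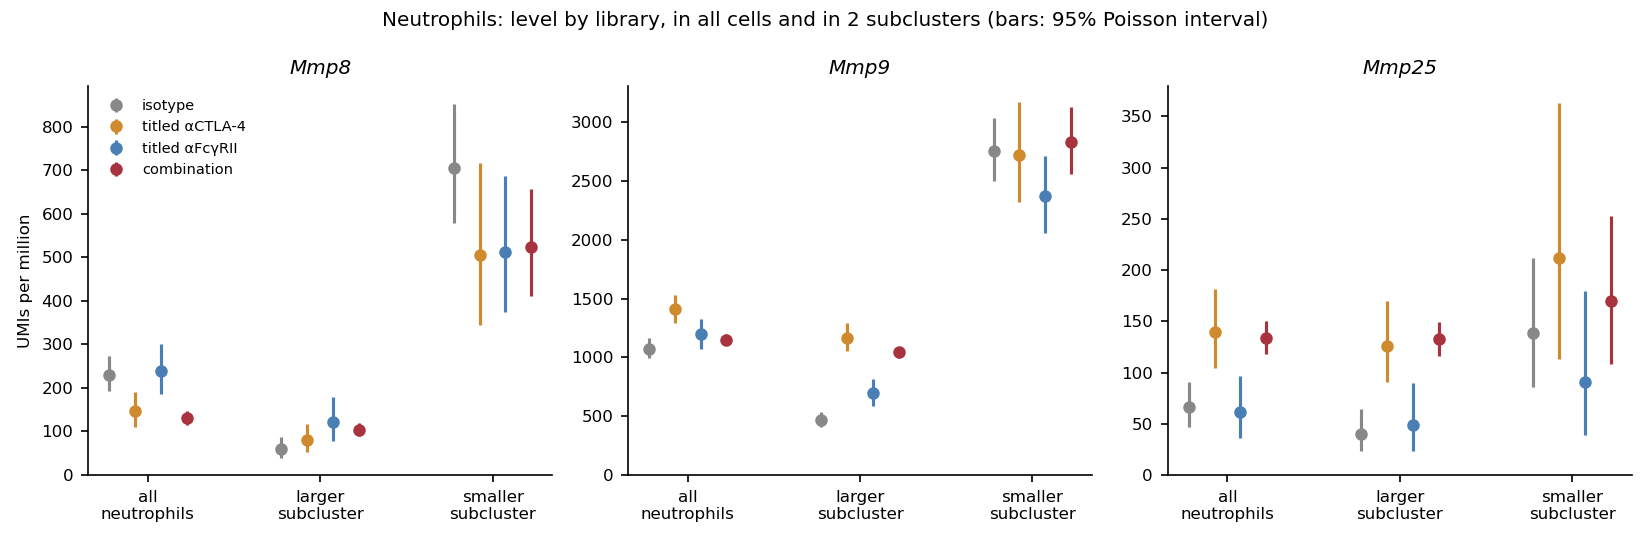
Mmp8, Mmp9 and Mmp25 in all neutrophils and in each subcluster, by library, in CPM with 95% counting intervals. Mmp8 in the smaller subcluster is 506 to 706 CPM and in the larger 59.5 to 122 CPM.

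In the stromal and tumor class 6 genes were tested and 4 were past the fold, with a background of 8.81% of 9402 genes. Mmp9 was lower in the combination library, at 0.489 (0.459 to 0.521). Timp1 was 1.73-fold (1.51 to 1.98), Mmp12 1.97-fold (1.35 to 2.94) and Mmp19 2.27-fold higher (1.47 to 3.64). With the highest 10% of doublet scores left out the Mmp19 ratio was 1.43, under the fold, and with no doublets left out that of Mmp12 was 4.97. Timp2 was at 0.674 (0.646 to 0.703) and Mmp14 at 0.746 (0.703 to 0.792), both short of the fold. The macrophage markers in this class were 1357, 1867, 1581 and 1844 CPM, and their part in the Mmp12 and Mmp19 values was not tested. The 14 stromal and tumor markers were 8625, 9332, 8526 and 6226 CPM, lowest in the combination library. The part of the make-up of the class in these ratios was not tested. On the list of other MMPs and Timp4, 5 of the 16 genes measured passed the level filter and 4 were lower, namely Mmp2, Mmp15, Mmp16 and Mmp28. Mmp15, at 29.5, 8.97, 0.702 and 7.99 CPM, was above 10 CPM in the isotype library only. It passed the filter only through that library, so it had to be lower in the combination. Mmp2, gelatinase A and the target of MMP14, was at 459, 364, 434 and 264 CPM.

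In dendritic cells Mmp25 was split by subset. Cluster 24, led by Ccr7 and Fscn1, genes of migrating dendritic cells, held 1670, 2004, 1665 and 1740 CPM, and it had 101 cells. Cluster 17, led by Cd209a and Siglech, held 53.7, 98.6, 82.7 and 237 CPM. The ratio of combination to isotype in all dendritic cells was 2.16. Cluster 24 was 38 of 242 dendritic cells in the isotype library and 35 of 126 in the combination library. The part of this make-up in the ratio was not tested. For the other members past the filter in dendritic cells, the ratios were 1.64 for Timp1, 1.47 for Mmp19 and 1.23 for Mmp14. They were 0.907 for Mmp12 and 0.567 for Timp2.

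In T cells 8 genes were tested and 7 were past the fold, with a background of 12% of 8991 genes. The ratios were 9.81 for Mmp13, 9.08 for Mmp12, 6.99 for Mmp8 and 5.17 for Mmp19. They were 2.00 for Mmp9, 1.78 for Mmp14, 1.61 for Mmp25 and 0.820 for Timp2. Mmp8 and Mmp13 passed the filter only through the combination library, their means in the other 3 being 3.29 and 6.15 CPM, and with the filter on those 3 the count was 5 of 6, against 11.9% of 8983 genes. The macrophage markers in T cells were 8286, 4146, 16410 and 10200 CPM. Mmp12 was at 37.6, 28.6, 107 and 341 CPM and Mmp14 at 129, 64.9, 219 and 230 CPM. Relative to macrophages, Mmp14 in T cells was 0.232, 0.119, 0.383 and 0.403 of the macrophage level, and the median macrophage marker 0.200, 0.0872, 0.387 and 0.318. Mmp9 lay above the highest macrophage marker in 3 of the libraries, at 5.64, 0.751 and 1.36 of its macrophage level in the isotype, titled αCTLA-4 and combination libraries, against 1.15, 0.631 and 0.806 for that marker. Mmp25 lay above that marker in the titled αCTLA-4, titled αFcγRII and combination libraries, at 1.05, 1.67 and 0.854, against 0.631, 0.955 and 0.806. Mmp8 lay above it in the combination library, at 2.00 against 0.806. Mmp8 in T cells was at 9.02, 0.866, 0 and 63.0 CPM. The neutrophil markers in T cells were 331, 208, 225 and 759 CPM. The part of macrophage or neutrophil RNA in these values was not tested. Without integration the ratios of Mmp8 and Mmp14 turned below 1, at 0.759 and 0.936, and those of Mmp13 (1.08) and Mmp25 (1.39) fell short of the fold.

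Genes of the same pathway, from lists chosen for what is known of these proteases with earlier results known, were read beside the members. This was done in monocytes, macrophages and cluster 4 together, although cluster 4 was kept apart from both classes above. In this pooled class 6.32% of 8563 genes passed the fold for combination over isotype. On the list of other MMPs and Timp4, none of the 16 genes measured passed the filter. Of 5 ADAM proteases tested, 0 were past the fold. Of 11 activators, receptors and inhibitors tested, 1 was higher and 1 lower. Slpi, an inhibitor of serine proteases, stood at 27.2, 45.6, 20.0 and 219 CPM (8.03-fold), and Plau, the urokinase that starts plasmin and so MMP activation, was lower at 754, 798, 714 and 452 CPM (0.599).

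Of 9 cathepsins and cystatins tested, 3 were higher: Ctsk, a collagen-cutting cysteine protease, at 15.5, 20.0, 26.4 and 81.4 CPM (5.27-fold), or 8.80, 3.51, 7.02 and 23.99 CPM (2.73-fold) without the 29 Mmp9-rich cells, Cstb (1.58) and Ctsl (1.54). Of 12 genes on the list of neutrophil granule proteins, only 3 passed the filter, namely Itgam, Cybb and Fpr1, and Fpr1 was higher (4.11). The others on that list, among them Mpo, Elane, Ltf and Lcn2, did not pass it. Of 5 matrix substrates, Fn1, fibronectin, was lower (0.660), and of 8 inducers and AP-1 subunits, Il1b was higher (1.67) with Jun at 0.722.

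The genes most like each member were found over 87 pools of 1 cluster in 1 library, drawn from 24 clusters and 10736 genes, by Pearson's r of log2(CPM + 1), as a description with no test, since pools share libraries. Mmp13 was most like Mmp12, also on chromosome 9, at r = 0.832. Mmp8 was most like Slpi (0.865), Mmp12 like Fcrlb (0.860), Mmp14 like Rai14 (0.931) and Mmp19 like Cacna1d (0.888). Timp2 was most like Cd63 (0.897), Mmp25 like Slco3a1 (0.811), Mmp9 like Ankrd33b (0.826) and Timp1 like Sestd1 (0.759).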

How the data were processed

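Cells of 4 pooled tumor samples were read with 10x Chromium Flex. The authors deposited raw UMI counts per gene and cell barcode. The labels name Cell Ranger 7.0.0 and mm10, and the matrix headers name cellranger 7.2.0. Cells with at least 500 genes and at most 10% mitochondrial UMIs were kept, and the highest 5% of Scrublet scores per library (scanpy 1.11.5) were left out as doublets, because the automatic threshold called only 1 to 3 cells per library. Clustering used Seurat 5.3.0 and sctransform 0.4.2 with 3000 integration features, without Mmp and Timp genes, 30 principal components and resolution 0.8. Clusters were named from marker lists of 8 to 14 genes by a rule set after the clusters were seen. UMI counts were summed per class and library and given per 1000000 UMIs (CPM). Intervals are exact at 95%, and cover counting error only. With 1 library per group no test was run. Ratios were computed for genes with a mean of at least 10 CPM, and 1.5-fold was the size rule. Members that pass that filter are given with values in most classes, but not in every class. From each pathway list the 3 genes with the largest absolute log2 ratio could be named, and the 3 most similar genes per member were taken over pools of at least 50 cells, among genes reaching 20 CPM. The members, marker lists and pathway lists were chosen with earlier results of these data known. The fold rule and the intervals were run on simulated Poisson counts, the model that the intervals assume. That run cannot show how they behave where a few cells hold most UMIs of a gene. Alternative settings are given in the closing section.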

Additional observations from a re-analysis of the deposited data

Results flagged for a closer look

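In neutrophils the combination library held less Mmp8 than the isotype library (ratio 0.568), opposite to macrophages (3.98). The neutrophil value was the sum of subclusters that differ in Mmp8, and in the larger subcluster alone the ratio was 1.75. In neutrophils Mmp13 was also lower (0.344, from 20 and 16 UMIs), against 2.03 in macrophages. In the stromal and tumor class Mmp9 was lower in the combination library (0.489), against 8.31 in macrophages. Each of these is a pair of ratios with opposite directions, drawn from 1 library per group, and the difference between classes was not tested.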

How the results depend on the processing

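Counts below are of combination over isotype unless named, each with the share of all tested genes past the same fold. Of the ratios of the tested members under the settings run, 127 of 127 values in macrophages, 83 of 99 in monocytes, 59 of 66 in dendritic cells, 78 of 94 in neutrophils, 85 of 96 in T cells and 63 of 66 in the stromal and tumor class stayed on the same side of 1.5-fold, and 124, 93, 59, 82, 94 and 66 of them kept their direction. No paired analysis was possible because each group is 1 library. In macrophages, titled αCTLA-4 over isotype (1 of 9 members in the main analysis), the count was 3 (1.33% of all genes) under median-of-ratios size factors, 2 (1.02%) with the mean over cells of UMIs per 10000, 2 (1.09%) with the highest 10% of doublet scores left out, 3 (1.10%) without integration, 0 of 8 (1.12%) at resolution 1.2 and 0 of 5 (0.855%) at a mean of at least 50 CPM. For titled αFcγRII over isotype (4 of 9) it was 2 (1.06%) without integration, 2 of 8 (1.61%) at resolution 1.2, 2 of 8 (1.64%) with 20 principal components, 1 (0.501%) at a fold of 2 and 1 of 5 (0.945%) at 50 CPM. At 50 CPM it was 3 of 5 (6.79%) for combination over isotype and 3 of 5 (8.73%) over titled αFcγRII (7 of 9 each). For combination over titled αCTLA-4 (5 of 9) it was 2 (1.34%) at a fold of 2 and 2 of 5 (4.16%) at 50 CPM. In monocytes (5 of 9) it was 3 of 5 (7.31%) at resolution 0.4 and 3 of 6 (8.09%) at 50 CPM. In neutrophils (3 of 8) it was 6 (43.2%) with the highest 10% of doublet scores left out and 6 (35.6%) without integration. In T cells (7 of 8) it was 2 of 6 (12.8%) without integration and 2 of 3 (7.40%) at 50 CPM. In the stromal and tumor class (4 of 6) it was 2 of 5 (8.62%) in cells with under 1% of UMIs on markers of other classes, 2 (3.08%) at a fold of 2, 2 of 4 (4.35%) at 50 CPM, and 7 of 9 (22.7%) with at least 1 UMI in each library compared.
Among ratios past 1.5-fold, these changed direction: Mmp8 (0.759) and Mmp14 (0.936) in T cells without integration, and Mmp8 in neutrophils, at 1.27 in cells under 1% and, an alternative chosen after seeing the data, 1.75 in the larger subcluster. Mmp9 in macrophages of titled αCTLA-4 over isotype was 0.610 at resolution 1.2, 0.656 with 20 principal components and 0.668 without the top 1% of cells, and of titled αFcγRII over isotype 0.768 without those cells. Without the cells with at least 20 Mmp9 UMIs, also chosen after seeing the data, these ratios were 0.392 and 0.810. Ratios under 1.5-fold also crossed 1. Among them were Mmp12 in neutrophils (from 1.44 to 0.393) and in dendritic cells (0.907 to 3.01) with the highest 10% of doublet scores left out, Mmp14 in neutrophils (0.865 to 1.75), Mmp9 in neutrophils (1.07 to 0.697) and Mmp14 in dendritic cells (1.23 to 0.834) without integration, and Mmp13 in monocytes (1.26 to 0.336) at resolution 0.4. Mmp13 and Mmp19 in neutrophils gave no value in cells under 1%, since the isotype library had 0 UMIs. The causes were not tested. Depth limits neutrophils, at 49 to 465 cells per library, and the stromal and tumor class, at 73 to 100 cells.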

Other observations

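Across all macrophages, 29 cells with at least 20 Mmp9 UMIs each held 35.4%, 94.1%, 84.1% and 79.6% of the macrophage Mmp9 UMIs in the isotype, titled αCTLA-4, titled αFcγRII and combination libraries, and they numbered 3, 5, 6 and 15. The remaining macrophages held Mmp9 at 3.04, 1.19, 2.46 and 8.05 CPM. In these 29 cells Ctsk stood at 7781 CPM against 10.8 CPM in the other macrophages, Acp5 at 7155 against 214 CPM, Atp6v0d2 at 862 against 25.9 CPM, Nfatc1 at 1099 against 104 CPM, and Oscar at 224 against 0.189 CPM. Ocstamp was at 219 and Dcstamp at 175 CPM, against 4.44 and 7.82 CPM. Of the 29 cells, 27 had a UMI of Acp5, 24 of Nfatc1, 22 of Ctsk and 22 of Atp6v0d2. Fewer had a UMI of Dcstamp (18), Ocstamp (15) and Oscar (13). These genes are known from osteoclasts, the multinucleated cells of bone, and they were looked up after the Mmp9 values were seen, so they are given as values with no test. Calcr, another osteoclast gene, was at 5.38 CPM with UMIs in 2 of the cells. The cells had a median of 38628 UMIs against 21502 in the other macrophages, 14 lay in cluster 1 and 6 in cluster 13, and 11 were not called macrophages at a clustering resolution of 1.2. Doublets were not tested in these cells beyond the score filter.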
